A study of Drosophila melanogaster with 3 samples.

Results

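The genes described are 9 nuclear receptor genes of the ecdysone cascade of *Drosophila melanogaster*, EcR, usp, Eip75B, Eip78C, Hr3, Hr4, Hr38, Hr39 and ftz-f1, out of 13968 protein-coding genes. They were listed by name, and a binding summit was given to a gene if it lay inside the gene or within 2 kb of either end. By that rule the 9 genes held 78 of the 7571 summits of the deposited list. The data are chromatin immunoprecipitation with sequencing (ChIP-seq) of net, a basic helix-loop-helix protein known from the patterning of wing veins. A stable transgenic line, strain net-GFP, made net fused at its C-terminal end to green fluorescent protein (GFP), and the fusion protein was precipitated with an antibody to GFP. All chromatin came from whole prepupae, males and females pooled, of unknown age. The 3 libraries, biological replicates 1, 3 and 4 of this line, form 1 group. What drives the transgene is not given in the sources used here. No control library was analysed here, so the values below describe 1 condition and no difference between groups was tested. In whole animals the cells that gave a peak cannot be told apart, and a peak list offers no marker by which to check the tissue.

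Nuclear receptors are transcription factors that share a DNA-binding domain with zinc fingers and, in most members, a pocket for a small ligand. In flies a pulse of the steroid 20-hydroxyecdysone at the end of larval life starts the prepupal stage. The hormone binds the heterodimer of EcR and usp, which switches on early genes, among them further receptors, and these in turn set the time at which later receptors such as ftz-f1 appear. Factors of the basic helix-loop-helix class bind the E-box, CANNTG, where N is any base.

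Binding was read from the authors' peak list on build dm6 that passed the irreproducible discovery rate (IDR) procedure, a filter built on the agreement of ranks between replicates. Each peak carries a summit and the authors' signal value. Signal served only to rank peaks within a list, with rank 1 the strongest. The 7571 IDR peaks were the 7571 strongest of the 30000 peaks called on the pooled libraries, so a rank here is a rank in the pool. How deeply each library was sequenced is unknown, since read counts are not among the values of a peak list. A summit counted as matched in a library if a summit among the 7571 strongest of that library lay within 100 bp. Intervals given beside shares are 95% Clopper-Pearson intervals, which are exact. They cover counting error only and treat summits as independent.

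The sequences under the strongest intronic or intergenic summit of 6 of the genes are shown, because they are the bases on which those signals were centred. Those of EcR, Hr3 and usp are not shown. Each is 101 bp of the dm6 plus strand from RefSeq, 50 bp on each side of the summit, and capitals mark an E-box on either strand. The windows lie at chrX:1951857-1951957 for Hr4 (signal 1538), chr3L:21253857-21253957 for Eip78C (972), chr3L:18009134-18009234 for Eip75B (957), chr3L:18756599-18756699 for ftz-f1 (419), chr2L:20716180-20716280 for Hr38 (299) and chr2L:21237823-21237923 for Hr39 (150). All lie in an intron of the gene except that of Hr38, which is intergenic.
Hr4: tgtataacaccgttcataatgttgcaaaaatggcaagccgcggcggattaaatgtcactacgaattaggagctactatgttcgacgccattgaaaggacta
Eip78C: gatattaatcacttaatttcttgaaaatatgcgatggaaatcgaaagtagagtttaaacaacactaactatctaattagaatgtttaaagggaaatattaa
Eip75B: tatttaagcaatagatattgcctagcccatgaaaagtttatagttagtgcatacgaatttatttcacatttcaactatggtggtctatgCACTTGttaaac
ftz-f1: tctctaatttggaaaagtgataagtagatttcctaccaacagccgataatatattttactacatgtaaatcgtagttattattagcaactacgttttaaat
Hr38: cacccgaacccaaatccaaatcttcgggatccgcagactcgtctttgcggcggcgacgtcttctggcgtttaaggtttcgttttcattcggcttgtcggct
Hr39: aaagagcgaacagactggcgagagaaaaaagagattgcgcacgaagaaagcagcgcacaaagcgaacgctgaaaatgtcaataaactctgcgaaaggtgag

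The window of Eip75B held the E-box CACTTG towards its right edge, and the other 5 windows held none. The base composition ranged from 24.8% G and C at Eip78C to 54.5% at Hr38.

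E-boxes lay under many other summits of the same genes. Of the 78 summits, 37 had a CANNTG within 50 bp (47.4%, interval 36.0 to 59.1%), against 36.7% of all IDR summits. In flanking windows, as long and centred 250 bp to either side, the order was the other way round. The share was 35.3% at these genes (interval 27.8 to 43.3%) and 42.5% at all summits. Both intervals at these genes included the share at all summits. By gene, E-boxes lay under 9 of 21 summits of Eip75B, 9 of 14 of Hr4, 5 of 10 of EcR, 4 of 11 of Hr3, 4 of 10 of ftz-f1, 3 of 7 of Eip78C, both of usp, 1 of 2 of Hr38 and 0 of 1 of Hr39.

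The palindromic E-box CATATG, which reads the same on both strands, lay under 6 of the 78 summits (7.69%, interval 2.88 to 16.0%), against 3.90% of all IDR summits. In the flanking windows it lay in 1 of 156 (0.641%, interval 0.0162 to 3.52%), against 3.08% at all summits. The 6 belonged to Eip75B and Hr4, with 2 each, and to usp and EcR, with 1 each. Of these, 5 are shown with 20 bp on each side, on the dm6 plus strand, to set the core in its context. Capitals mark CATATG alone, and other E-boxes stay in lower case. The windows are chrX:1947708-1947753 and chrX:1948708-1948753 in an intron of Hr4, chrX:2041406-2041451 at the RA promoter of usp, chr3L:18005367-18005412 in an intron of Eip75B and chr3L:18065270-18065315 upstream of Eip75B.
Hr4, first: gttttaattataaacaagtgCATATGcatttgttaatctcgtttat
Hr4, second: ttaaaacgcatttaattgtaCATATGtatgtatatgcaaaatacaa
usp: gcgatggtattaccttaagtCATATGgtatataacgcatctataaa
Eip75B, intron: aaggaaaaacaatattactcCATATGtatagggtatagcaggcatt
Eip75B, upstream: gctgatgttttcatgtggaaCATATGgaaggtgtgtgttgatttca

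The 2 Hr4 cores lay 23 and 32 bp from summits of signal 1248 and 640, ranks 113 and 631, the second and the third strongest of that gene. The others lay under weaker summits. The usp core was 19 bp from a summit of signal 205, the upstream Eip75B core 5 bp from one of signal 164, the intronic Eip75B core 45 bp from one of signal 164, and the EcR core 46 bp from one of signal 259.

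The half-site of nuclear receptors, AGGTCA, was searched on both strands because it is the core that many nuclear receptors bind. It lay under 1 of the 78 summits (1.28%, interval 0.0325 to 6.94%), a summit of ftz-f1, against 1.78% of all. The flanking windows held it in 9 of 156 (5.77%, interval 2.67 to 10.7%), against 1.83% at all summits, at 9 separate sites in 6 genes (EcR, Eip75B, Eip78C, Hr3, Hr4 and ftz-f1). The extended half-site CAAGGTCA, which contains AGGTCA, lay under 0 of 78 summits (interval up to 4.62%, and 3 counts of 78 are 3.85%), against 0.106% of all. In the flanking windows it lay in 2 of 156 (1.28%), against 0.231% at all summits. The GAGAG word lay under 14 of 78 summits (17.9%), against 14.3% of all, and in 17.3% and 17.2% of the flanking windows. A match here is a word in a window and was not tested as a site.

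All 9 genes had at least 1 IDR summit. Over all protein-coding genes the share with a summit was 34.4%, and over the 1020 protein-coding genes of 20 kb or more it was 68.7%. Since 8 of the 9 receptor genes span 20 kb or more, the second share is the one to set beside them. The number of summits differed widely among the 9. Eip75B had 21 summits, Hr4 14, Hr3 11, EcR and ftz-f1 10 each, Eip78C 7, usp and Hr38 2 each and Hr39 1. Thus 5 of 9 had 10 or more, which held for 9.12% of the protein-coding genes of 20 kb or more. With 1 summit per run of overlapping peaks Hr3 and ftz-f1 fell to 8 each. With peaks matched in all 3 libraries only Eip75B, with 11, kept 10 or more. The 9.12% was not recounted under these settings. Per length, the 9 genes with their flanks held 1.63 summits per 10 kb, against 0.597 for protein-coding genes of 20 kb or more and 0.667 for all protein-coding genes. The 9 genes span 442 kb in total.

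**Figure D1:**
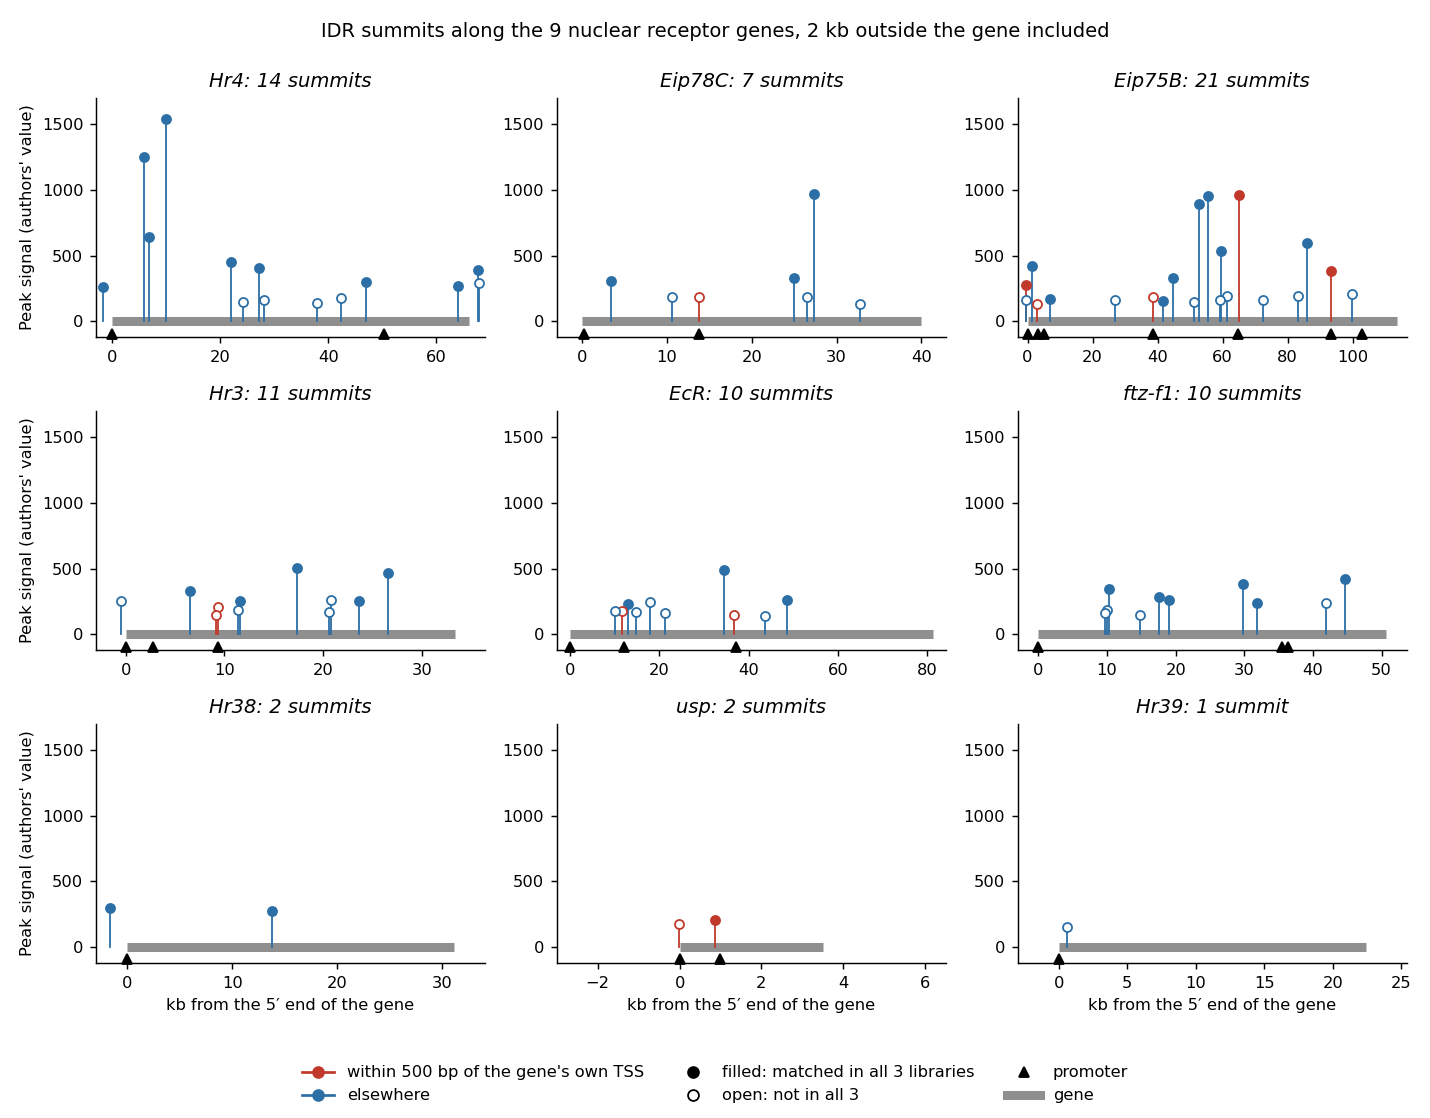
Signal of each IDR summit (authors' value, vertical axis) by its distance in kb from the 5′ end of the gene (horizontal axis) for the 9 genes. Red marks summits within 500 bp of a transcription start site of the same gene, filled points are matched in all 3 libraries, triangles are promoters and the grey bar is the gene; the strongest summits of Hr4 (1538) and Eip78C (972) stand away from the triangles, and that of Eip75B (963) stands on one.

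The 2 genes of the hormone receptor had strongest summits of signal 486 in EcR and 205 in usp. Their median signals, 176 and 191, were both below the list median of 225, as were those of Eip75B (191), Eip78C (189) and Hr39 (150). EcR (FBgn0000546, chr2R:6087873-6169087, minus strand, 81.2 kb) encodes the subunit that binds ecdysone. Its 10 summits all lay inside the gene, with a median signal of 176 and a highest of 486. The strongest stood in an intron 2700 bp upstream of the shared start site of transcripts RB and RC, at rank 1082 in the IDR list, and the nearest transcription start site (TSS) of any gene was that of CG14589 at 2681 bp. Its ranks in replicates 1, 3 and 4 were 1060, 1165 and 1172 (mean 1132 ± 62.7, SD, n = 3), so the 3 libraries placed it almost alike. The next 2 summits, of signal 259 and 247, were also intronic, 11292 bp downstream of the RG start and 5821 bp downstream of the RD and RE starts. The first of them ranked 3175, 1924 and 5571 in the libraries, and the second 7974, 1367 and 10198, a far wider spread. The nearest TSS to the second was that of a transfer RNA gene, tRNA:Asn-GTT-1-1, at 1368 bp. The last 32.7 kb of EcR up to its 3′ end held none. Genes of like span, within 20% of that of EcR, had a median of 3 summits, and 24 of 105 had 10 or more.

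The partner of EcR, usp (FBgn0003964, chrX:2038798-2042311, minus strand, 3.51 kb), is the fly relative of the vertebrate retinoid X receptors and the 1 short gene among the 9. It had a summit at each of its promoters. The stronger, of signal 205 and rank 4346, lay 136 bp upstream of the RA start and over the CATATG shown above, and ranked 4939, 6962 and 3712 in the libraries (mean 5204 ± 1641). The weaker, of signal 177 and rank 5302, lay 19 bp upstream of the RB start, where the gene Actn has a TSS at the same distance, and ranked 4805, 4790 and 7583. The second was matched in 2 of the 3 libraries. Genes overlap here: the stronger summit lies in an intron of Actn as well as of usp, and the weaker lies in the 5′ untranslated region of CG4313, so the lists cannot tell to which gene either belongs. Of 1609 genes of like span, 35.1% had a summit and 208 had 2 or more.

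The early receptors Eip75B and Eip78C each had a summit among the 232 strongest of the list. Eip75B (FBgn0000568, chr3L:17950953-18064696, minus strand, 114 kb) encodes a haem-binding receptor that is switched on directly by the hormone and whose protein blocks Hr3. Its 21 summits were the most among the 9 genes in the full IDR list and the seventh highest count of all protein-coding genes, counting ties at the same place. The count was 12, 11 and 16 without replicate 1, 3 and 4. Only 4 of 69 genes of like span had as many, and the median of these was 5. The 3 strongest summits had signals of 963, 957 and 896. The first lay in the 5′ untranslated region, 54 bp downstream of the RC start, and ranked 163, 475 and 202 in the libraries (mean 280 ± 170). The second and the third lay 9363 and 12096 bp upstream of the same start, in introns. They ranked 328, 236 and 219 (mean 261 ± 58.6) and 444, 255 and 282 (mean 327 ± 102). All of these ranks fell among the 475 strongest peaks of a library. The first ranked above the others in replicates 1 and 4 and below them in replicate 3, and the second ranked above the third in every library. The longest stretch of the gene with no summit was 20.3 kb.

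Eip78C (FBgn0004865, chr3L:21226609-21266503, plus strand, 39.9 kb), an early gene whose product resembles that of Eip75B, had 7 summits, all inside the gene. One stood far above the rest. It lay in an intron 13560 bp downstream of the RB start with a signal of 972, and ranked 204, 278 and 205 in the libraries (mean 229 ± 42.4). The nearest TSS was that of CG43218 at 4113 bp. The next summits had signals of 330 and 304 and lay 11222 bp downstream of the RB start and 3035 bp downstream of the RA start. They ranked 3141, 2126 and 2124 and 2142, 3165 and 2573, below the first in every library. A median of 2 summits was found over 281 genes of like span, 41 of which had 7 or more.

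The early-late receptors Hr3 and Hr4 were both dense in summits, and Hr4 had the strongest of all 9 genes. Hr3 (FBgn0000448, chr2R:10203995-10237348, minus strand, 33.4 kb), a relative of the vertebrate ROR receptors, represses early genes and activates ftz-f1 as the hormone declines. It had 11 summits, or 2.94 per 10 kb. With 1 summit per run of overlapping peaks it had 8, and without 1 replicate 6 or 7. Of 299 genes of like span 6 had as many, and their median was 2. Its strongest summit, of signal 502, lay in an intron 7923 bp downstream of the start shared by RA, RF and RH, and ranked 1004, 768 and 1393 in the libraries (mean 1055 ± 316). The second, of signal 466, lay 566 bp from the TSS of lncRNA:CR46322 and ranked 1027, 1161 and 1517 (mean 1235 ± 253). The third, of signal 332, lay 2889 bp upstream of the start of RA, RF and RH and ranked 3074, 2681 and 1583. The order of the 3 was the same in every library, although the ranges of the first and second overlapped. The annotation also puts CG12912 and CG46321 over these introns, and CG46321 shares the start site of RA, RF and RH, so a summit here cannot be given to 1 of the genes.

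Hr4 (FBgn0264562, chrX:1941940-2007956, plus strand, 66.0 kb), a receptor that represses early genes and is needed for the induction of ftz-f1, had 14 summits. Of these, 11 lay inside the gene, 1 lay 1733 bp upstream and 2 lay 1627 and 1833 bp downstream. The 3 outside stood at start sites of neighbouring genes, 100 bp from that of CG3587, 219 bp from that of PIG-K and 168 bp from that of lncRNA:CR45478. The 3 strongest lay in introns 9967, 5814 and 6759 bp downstream of the first start site, where 7 transcripts begin, with signals of 1538, 1248 and 640. The first ranked 117, 58 and 51 in replicates 1, 3 and 4 (mean 75.3 ± 36.3), the second 80, 162 and 111 (mean 118 ± 41.4) and the third 774, 595 and 579 (mean 649 ± 108). The first and second changed places between libraries: replicate 1 ranked the second higher, and replicates 3 and 4 ranked the first higher. The third was below both in every library. Of 150 genes of like span 6 had 14 or more summits, and the median was 3.

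The prepupal receptor ftz-f1 (FBgn0001078, chr3L:18750607-18801309, minus strand, 50.7 kb) makes tissues competent to answer the next pulse of hormone. It had 10 summits, all in introns, and none lay within 500 bp of its start sites. The strongest 3 had signals of 419, 383 and 346. The first lay 8307 bp downstream of the RA start and 2564 bp from the TSS of lncRNA:CR45938, and ranked 1223, 1754 and 1243 in the libraries (mean 1407 ± 301). The second lay 5726 bp upstream of the start of RC and RD and ranked 1315, 1711 and 2516 (mean 1847 ± 612). The third lay 10309 bp downstream of the RB start and ranked 2087, 2238 and 2027 (mean 2117 ± 109). The first and second changed places in replicate 3, and the second and the third did so in replicate 4. Of 230 genes of like span 23 had 10 or more summits, with a median of 2.

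Hr38 and Hr39 had the fewest summits per length of the 9 genes, 0.569 and 0.378 per 10 kb. The density over protein-coding genes of 20 kb or more was 0.597. Hr38 (FBgn0014859, chr2L:20683462-20714588, minus strand, 31.1 kb), a relative of the vertebrate Nur receptors that can pair with usp, had 2. One was intergenic, 1642 bp upstream of the start of RB and RD, with a signal of 299 and library ranks of 3211, 2924 and 2173 (mean 2769 ± 536). The other was intronic, 13798 bp downstream of that start, with a signal of 277 and ranks of 4668, 2875 and 2688, and the nearest TSS was that of lncRNA:CR44187 at 9306 bp. Both were matched in all 3 libraries. Hr39 (FBgn0261239, chr2L:21237250-21259675, plus strand, 22.4 kb), a relative of ftz-f1 that binds like sequences, had 1 summit. It lay in an intron 623 bp downstream of the start and 428 bp from the microRNA gene mir-9374, with a signal of 150, rank 6595. It ranked 3547 in replicate 1 and 15933 in replicate 4 and had no counterpart within 100 bp among the 30000 peaks of replicate 3, and it was the one strongest summit of the 9 genes with a library missing. Genes of like span had a median of 2 summits for Hr38, 160 of 311 having 2 or more, and of 1 for Hr39, 269 of 393 having at least 1. The counts of both genes were thus near those of other genes of their size.

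**Figure D2:**
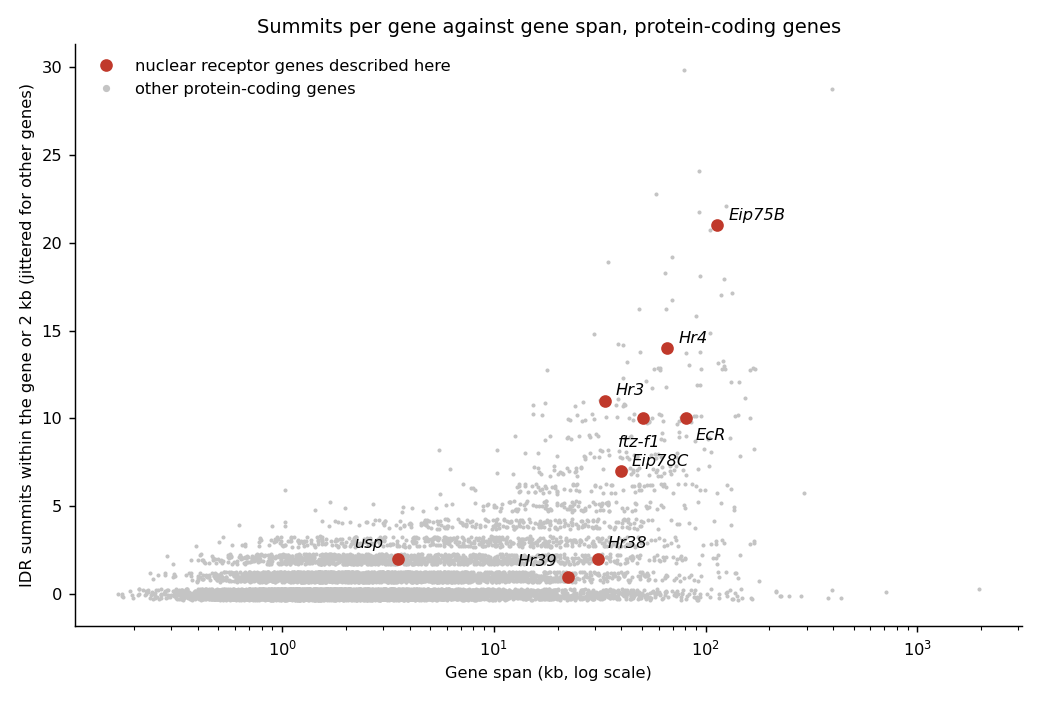
IDR summits within the gene or 2 kb (vertical axis) against gene span in kb (horizontal axis, log scale) for all protein-coding genes, with the 9 receptor genes in red and named; the grey points are jittered vertically. Eip75B (21 summits), Hr4 (14) and Hr3 (11) are among the higher counts for their span, and Hr38 (2) and Hr39 (1) are near the median for theirs.

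For the genes most like the 2 with the most summits, the protein-coding genes within 20% of the span were ordered by difference in summit count and then in log signal of the strongest summit. For Eip75B these were CG43658 with 21 summits (strongest signal 1205), CG1677 with 22 (1139) and Tet, which encodes a relative of the vertebrate TET dioxygenases, with 22 (1281). For Hr4 they were psq with 13 (965), the ecdysone-induced Ets factor gene Eip74EF with 13 (737) and CG12535 with 13 (659). The likeness rests on 1 pooled list.

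The alternative promoters of the same gene differed. Start sites of a gene at most 500 bp apart were joined, which gave 24 promoters for the 9 genes, and 11 of them (45.8%) had an IDR summit within 500 bp. The share was 16.8% over the promoters of all protein-coding genes, 23.7% over those of genes with several promoters and 25.5% over those of genes of 20 kb or more. The 11 belonged to 5 genes, EcR, usp, Eip75B, Eip78C and Hr3, and held 12 summits. Of these 12, 4 were matched in all 3 libraries, at RA, RC and RF of Eip75B and RA of usp. The 12 fell to 4 without replicate 1 or 3 and to 8 without replicate 4, where a summit had to be matched in both other libraries. A summit at the gene's own start was held by 18.2% of all protein-coding genes and by 41.1% of those of 20 kb or more.

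Eip75B supplied 5 of the 11. Its promoters RC (signal 963), RA (386), RF (280), RG (183) and RE (135) had a summit in the IDR list. RD had summits only in the relaxed pooled list, the stronger of signal 114, and the nearest IDR summit to RB was 1666 bp away. The RG summit ranked 4222 and 3014 in replicates 1 and 3 and the RE summit 8317 and 5276, and neither had a counterpart in replicate 4. EcR had a summit at the promoter of RD and RE (175), which ranked 8382 and 11280 in replicates 1 and 3 and had no counterpart in replicate 4. It also had one at the promoter of RB, RC and RG (145), which had none in replicate 1 and ranked 12839 and 4143 in replicates 3 and 4. Neither was among the 7571 strongest peaks of more than 1 library, and the nearest to the RA start was 9939 bp away. Both usp promoters were occupied, with signals of 205 at RA and 177 at RB. Eip78C had a summit 31 bp upstream of the RB start (186), which ranked 2186, 3879 and 24940 in the libraries, and only a relaxed one (111) at the start of RA, RD and RE. In Hr3 the promoter of RA, RF and RH had 2 summits, of signal 209 and 144, and the nearest to the RD start stood 509 bp away, just beyond the limit. That summit lies outside Hr3, 131 bp from the TSS of Hdc and in an exon of lncRNA:CR45265.

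At Hr4, Hr38, Hr39 and ftz-f1 no promoter had an IDR summit. The relaxed pooled list gave weak ones at both Hr4 promoters (69.8 and 80.9), at that of Hr38 (59.4) and at the RC and RD promoter of ftz-f1 (119), all below the weakest IDR signal of 134. In all, 6 of the 24 promoters had a summit in the relaxed list alone and 7 had none in either. Hr4 and ftz-f1 thus had 11 and 10 summits inside the gene and no IDR summit at a start site of their own.

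**Figure D3:**
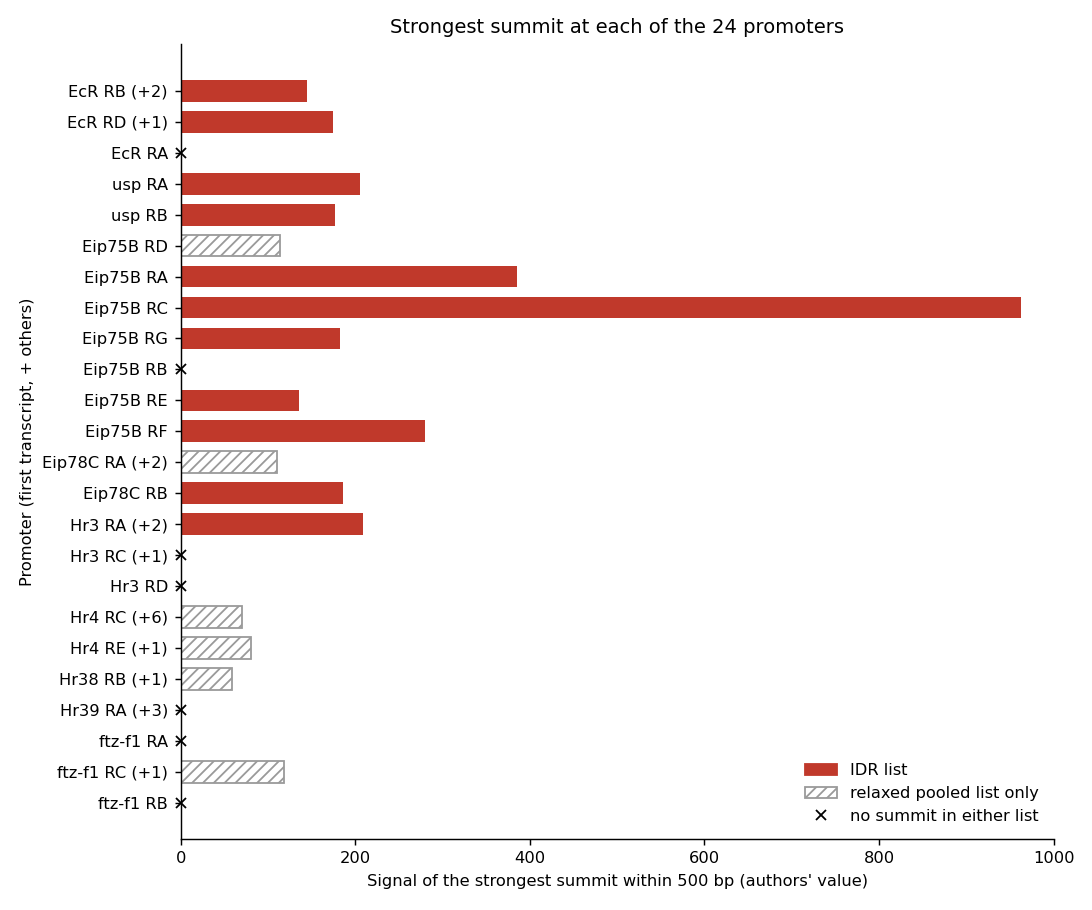
Signal of the strongest summit within 500 bp (authors' value, horizontal axis) at each of the 24 promoters (vertical axis, by the first transcript and the number of others sharing it). Red bars are IDR summits, hatched bars are in the relaxed pooled list only and crosses mark promoters with neither; the RC promoter of Eip75B, at 963, exceeds all others.

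The summits of the 9 genes were mostly intronic and far from start sites. Of the 78, 55 were in introns more than 500 bp from any TSS (70.5%, interval 59.1 to 80.3%), against 44.7% of all IDR summits. Another 17 were within 500 bp of a TSS of any gene (21.8%, interval 13.2 to 32.6%), against 36.5%. Exons held 4 (5.13%, against 2.77%) and intergenic sequence 2 (2.56%, against 15.9%). Setting these intervals beside the shares over all summits is no test, because the rule takes only summits inside these genes or within 2 kb. A low intergenic share thus follows from the rule. Of the 9 genes 8 are long, and the part of gene length in these shares was not tested. The median distance to the nearest TSS was 3200.5 bp, against 1121 bp over all summits, and 31 summits (39.7%, interval 28.8 to 51.5%) lay beyond 5 kb of any TSS, against 21.4%. For 53 of the 78 (67.9%) the nearest TSS was the receptor gene's own. For the other 25 it was that of another gene.

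**Figure D4:**
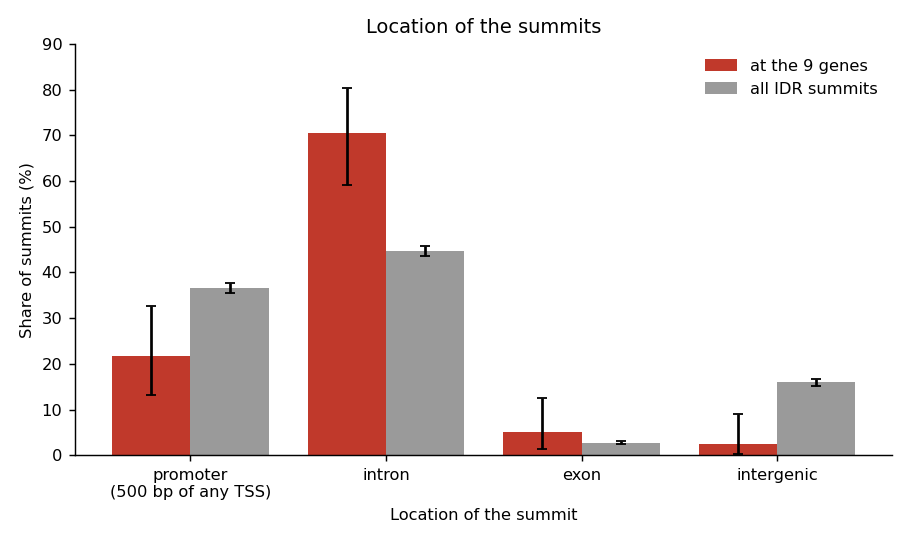
Share of summits in percent (vertical axis) by location (horizontal axis) for the 78 summits of the 9 genes (red) and all 7571 IDR summits (grey), with exact 95% Clopper-Pearson intervals as error bars. Introns held 70.5% against 44.7%, and promoters of any gene 21.8% against 36.5%.

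The strength of the summits was close to that of the list. Their median signal was 244, against 225 over the list, and their range was 135 to 1538. The 1892 strongest summits of the list, 25% of it, included 19 of the 78 (24.4%), and the 3785 strongest, 50%, included 42 (53.8%). The base composition averaged 38.2% G and C ± 10.6 (SD over 78 summits), against 36.6% ± 10.2 over all.

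Close neighbours among the summits were about as frequent as in the list. Runs of summits no more than 2 kb apart numbered 14 and held 37 of the 78 (47.4%), against 52.1% of all IDR summits with another within 2 kb. The longest run, at EcR, held 4 summits over 4805 bp around the RD and RE starts. Eip75B had 4 over 3452 bp, from 393 bp upstream of the RE start to beyond the RF start, and Hr3 had 4 over 2402 bp around the starts of RA, RF and RH. In Eip78C the strongest summit (972) ended a run of 3 over 2338 bp. Peaks of 8 neighbouring pairs overlapped, so some close summits may be parts of 1 peak, and counting 1 summit per run of overlapping peaks left 70 of the 78.

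The libraries placed the strong summits more alike than the weak ones. Within their whole relaxed lists, 74, 74 and 72 of the 78 summits had a counterpart in replicates 1, 3 and 4. Among the 7571 strongest peaks of each library the numbers were 58 (74.4%), 62 (79.5%) and 56 (71.8%). In all 3 libraries 40 were matched (51.3%, interval 39.7 to 62.8%), against 56.8% of all IDR summits. A further 21 were matched in 2 libraries, 14 in 1 and 3 in none. A match needs a place among the 7571 strongest peaks, the length of the IDR list itself. Fewer matches towards the last ranks thus follow in part from the rule. With the whole relaxed lists 65 of the 78 were matched in all 3 libraries. The 40 were spread over 8 genes, 11 at Eip75B, 9 at Hr4, 6 at ftz-f1, 5 at Hr3, 3 each at EcR and Eip78C, 2 at Hr38 and 1 at usp, with none at Hr39. Of all protein-coding genes, 25.6% had such a summit. Of the 1020 protein-coding genes of 20 kb or more, a length that 8 of the 9 genes reach, 613 had one.

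By rank in the IDR list, all 19 summits within ranks 1 to 1892 were matched in the 3 libraries, against 94.8% of all summits there. Within ranks 1893 to 3785 it was 18 of 23 (78.3%), against 83.0%. Within ranks 3786 to 5679 it was 2 of 17 (11.8%, interval 1.46 to 36.4%), against 44.0%, and within ranks 5680 to 7571 it was 1 of 19 (5.26%), against 5.23%. The widest gap between the receptor genes and the list was thus at ranks 3786 to 5679. Receptor summits lay towards the weaker end of that range, since all but those at ranks 4210, 4346 and 4370 ranked 4803 or weaker. Matching over the list falls with rank, so summits of equal rank were not compared, and the part of rank was not tested. A split by location was made for that range alone. Of the 9 intron summits in that range 1 was matched, against 48.9% of all intron summits there. Promoter summits there gave 1 of 6, against 37.0%, and exon summits 0 of 2, against 40%. For summits with a rank in all 3 whole lists, the highest rank was a median of 1.50 times the lowest among the 1892 strongest (range 1.11 to 3.09, n = 19) and 2.21 times among the rest (range 1.10 to 11.4, n = 46). The widest ratio was that of the Eip78C promoter summit.

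**Figure D5:**
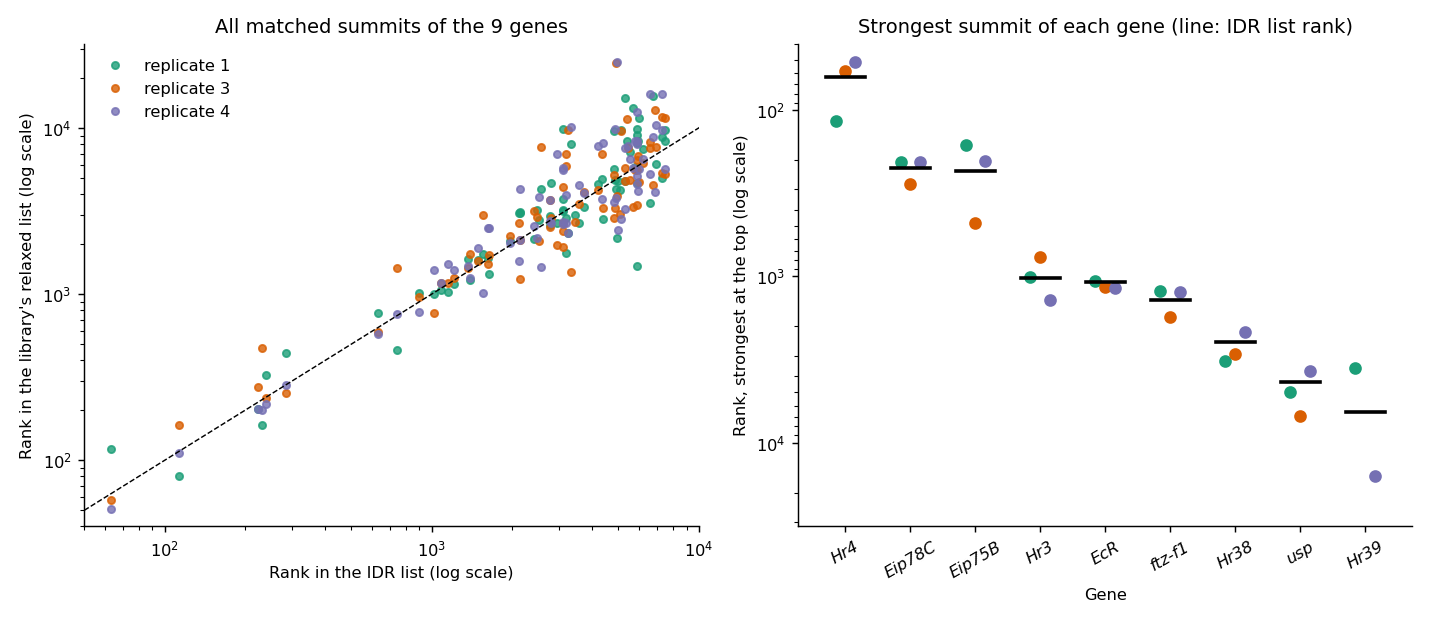
Left, rank of each summit of the 9 genes in the relaxed list of each library (vertical axis, log scale) against its rank in the IDR list (horizontal axis, log scale), with the line of equal rank; right, the rank of each gene's strongest summit in each library (points) and in the IDR list (bars), strongest at the top. The points lie close to the line up to rank 1892 and spread beyond it, and the Hr39 summit has no point for replicate 3.

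The limits of the list cut through weak summits of these genes. Just inside, the weakest summits were at Eip75B (signal 135.4, rank 7490), Eip78C (136, rank 7446) and EcR (138, rank 7313). Just outside were relaxed summits at ftz-f1 (132, rank 7740), Hr4 (131, rank 7841) and ftz-f1 again (130, rank 7855). The relaxed pooled list held 283 summits at the 9 genes, 205 of them outside the IDR list. In distance, the farthest summits counted were the 2 of Hr4 at 1733 and 1833 bp and that of Hr38 at 1642 bp from the gene. The nearest not counted were those of Eip78C at 2115 bp, ftz-f1 at 2280 bp and usp at 2309 bp.

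Other genes of the pathway were counted in full from lists by function. The other transcription factors of the cascade all had a summit, 5 of 5, at 0.886 summits per 10 kb. Of these 5, 4 span 20 kb or more, a class in which 68.7% of protein-coding genes had one, and the density over all protein-coding genes was 0.667 per 10 kb. Eip74EF, an Ets factor, had 13 summits (strongest signal 737), Eip93F had 3 (594) and br, the zinc-finger Broad complex, had 6 (343). Of the receptor coregulators 5 of 7 had a summit, at 1.17 per 10 kb, against 34.4% of all protein-coding genes, and 2 of the 7 span 20 kb or more. They included the corepressor gene Smr with 8 (594), alien with 1 (523) and the coactivator gene tai with 13 (443).

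Of the 12 other nuclear receptors 8 had a summit (66.7%), each with at most 4, against 34.4% of all protein-coding genes. All 3 of the 12 that span 20 kb or more had one, against 68.7% of such genes, and the density of 0.755 per 10 kb stood beside 0.667 over all genes. The strongest were at Hnf4 (660), Hr96 (586) and knrl (522), and Hr51, tll, dsf and kni had none. The 12 are shorter, with a median span of 6.09 kb against 39.9 kb for the 9 cascade receptors. Of the 10 genes of ecdysone synthesis, clearance and uptake 2 had a summit, beside 34.4% of all protein-coding genes. These were Oatp74D, the importer of ecdysone into cells, with 7 summits (459), and shd, the enzyme that makes the active hormone in target tissues, with 3 (198). The genes nvd, sro, spo, spok, phtm, dib and sad, which act in synthesis of the hormone, and Cyp18a1, which clears the hormone, had none. Of these 10 genes 3 span 20 kb or more, and 1 of the 3 had a summit, against 68.7% of such genes. Their density was 0.509 per 10 kb, against 0.667 over all genes. No difference between these lists, or between a list and all genes, was tested.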

How the data were processed

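Chromatin of 3 libraries in 1 group was measured, per the labels. Per the deposited file descriptions, the authors called a relaxed peak list on each library and on the pooled libraries, with a control alignment not analysed here, and derived the IDR-thresholded list from these. The signal value and summit offset of each peak are the authors', as deposited. Aligner, peak caller and versions: not given in the sources used here. The dm3 lists were not used here. Summits were assigned, with Python 3.11.15, NumPy 2.4.6 and SciPy 1.17.1 and code tested on simulated data, to Ensembl release 115 gene models without transposable elements and pseudogenes (17947 genes) on the Release 6 genome of RefSeq, which is dm6. The older names phm, EcI and Alien were matched to phtm, Oatp74D and alien by synonym.

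Named are the 9 genes, the strongest 3 summits of each and every summit within 500 bp of its own start, genes whose start is nearest to these, the genes most like Eip75B and Hr4 and up to 3 genes of each comparison list. Summits near a limit, genes that overlap or neighbour the summits of usp, Hr3 and Hr4, and the genes of a list with no summit were added after their values were seen. The members and lists were chosen with earlier results of these data known. With 1 group and no control there was no test. Alternatives changed the distance, promoter limit, peak list, match rule, motif window and libraries.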

Additional observations from a re-analysis of the deposited data

How the results depend on the processing

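The count of 9 genes with a summit was 9 inside the gene, within 5 kb and with 1 summit per run of overlapping peaks or the relaxed list, 7 with the 3785 strongest peaks, 8 with peaks matched in all 3 libraries, 8 without any 1 replicate, and 5 within 500 bp of the gene's own start. Hr39 lost its only summit in the 3785 strongest peaks, in the matched peaks and without any 1 replicate, and usp lost both in the 3785 strongest. The 78 summits became 42 with the 3785 strongest peaks, 40 with matched peaks, 44 to 51 without 1 replicate, 12 within 500 bp of an own start and 283 with the relaxed pooled list. Summits per 10 kb went from 1.63 to 0.879, 0.837 and 0.921 to 1.07 in the first 3 of these settings. The 78 were 1.03% of the list, and under the settings that shorten the list the share was 0.895 to 1.11% of it. At every gene but Hr38, leaving out at least 1 of the 3 replicates, though not always each of them, moved the count by more than 1.5 times. Without replicates 1, 3 and 4 the count was 5, 3 and 4 at EcR (10), 1, 1 and 2 at usp (2), 12, 11 and 16 at Eip75B (21), 3, 4 and 5 at Eip78C (7), 7, 7 and 6 at Hr3 (11), 10, 10 and 9 at Hr4 (14), 6, 6 and 7 at ftz-f1 (10) and 0 each time at Hr39 (1). The 12 summits at own promoters became 6 at 200 bp, 16 at 1000 bp, 3 with the 3785 strongest peaks and 4 to 8 without 1 replicate. The 40 summits matched in all libraries became 65 with whole relaxed lists and 44 to 51 without 1 replicate. The share with an E-box was 21.8% within 25 bp, 62.8% within 100 bp and 45.5 to 52.2% without 1 replicate. No paired analysis was possible because all libraries belong to 1 group. Leaving out a library means asking for a match in both others, which by its construction shortens the list. The lists hold no counts, so no limit from depth can be given, and without a control library in the files used, signal common to any precipitation was not tested.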
